A study of Saccharomyces cerevisiae with 3 samples.

Results

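Hsp90 is the abundant, ATP-driven chaperone that finishes the folding of signalling proteins such as kinases and transcription factors, and it works with cochaperones that bring in clients, set the pace of the ATPase cycle or bind the closed form. Budding yeast makes Hsp90 from a heat-inducible gene, HSP82, and a gene with high constitutive expression, HSC82, and needs at least one of them to live. Many of these genes carry binding sites for the heat shock factor Hsf1, which is known to respond to unfolded proteins, and arsenite is known to bind protein thiols and to disturb folding. The 10 genes described here are the Hsp90 genes HSP82 and HSC82 and the cochaperone genes STI1, CDC37, CNS1, AHA1, HCH1, SBA1, CPR6 and CPR7, taken by gene symbol from 5539 named genes. All 10 were measured, each by 2 spots, so the values rest on 20 of 13056 spots.

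Ratios of transcripts came from 3 two-colour arrays on which total RNA of wild-type Saccharomyces cerevisiae exposed to arsenite, As(III), at 0.2 mM for 1 h was hybridised together with total RNA of untreated wild-type cells. The treated cells' RNA was labelled with Cy5 on replicates 1 and 2, whereas replicate 3 had it in Cy3, and the labels give no strain, mating type, culture or growth phase. All values are log2 ratios of treated over untreated cells with the array median set to 0, and errors are SD over the 3 arrays (n = 3). The direction is likely rather than stated, because the files do not name the numerator: Cy5 was taken over Cy3, and the opposite reading would turn every sign. Replicate 3 was multiplied by -1 because its dyes were exchanged and its deposited values ran against those of replicates 1 and 2 (r = -0.782 and -0.613 over all spots). The values were read as base 2, which the files do not state; were they natural logarithms, folds would be larger and the tests the same.

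Expression of the Hsp90 system did not move as a block. CPR6, SBA1 and STI1 rose, CNS1 fell, and the other 6 genes did not pass the test, the Hsp90 genes themselves among them. The ratios ran from 1.36 for CPR6 to -0.71 for CNS1, and CPR6 was the 1 member past 2-fold. Calls are limma tests of the mean ratio against 0 over all 5539 genes, with Benjamini-Hochberg adjusted p below 0.05. By that rule 13.3% of all genes rose and 18.8% fell, 32.1% in either direction. Beside that background, 3 members rose, 1 fell and 6 did not pass, so the share called, 4 of 10, is near that of all genes and no result about the system as a whole. The median over the members was 0.25, against -0.02 over all genes. The members' medians on replicates 1, 2 and 3 were 0.31, 0.28 and 0.45.

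**Figure D1:**
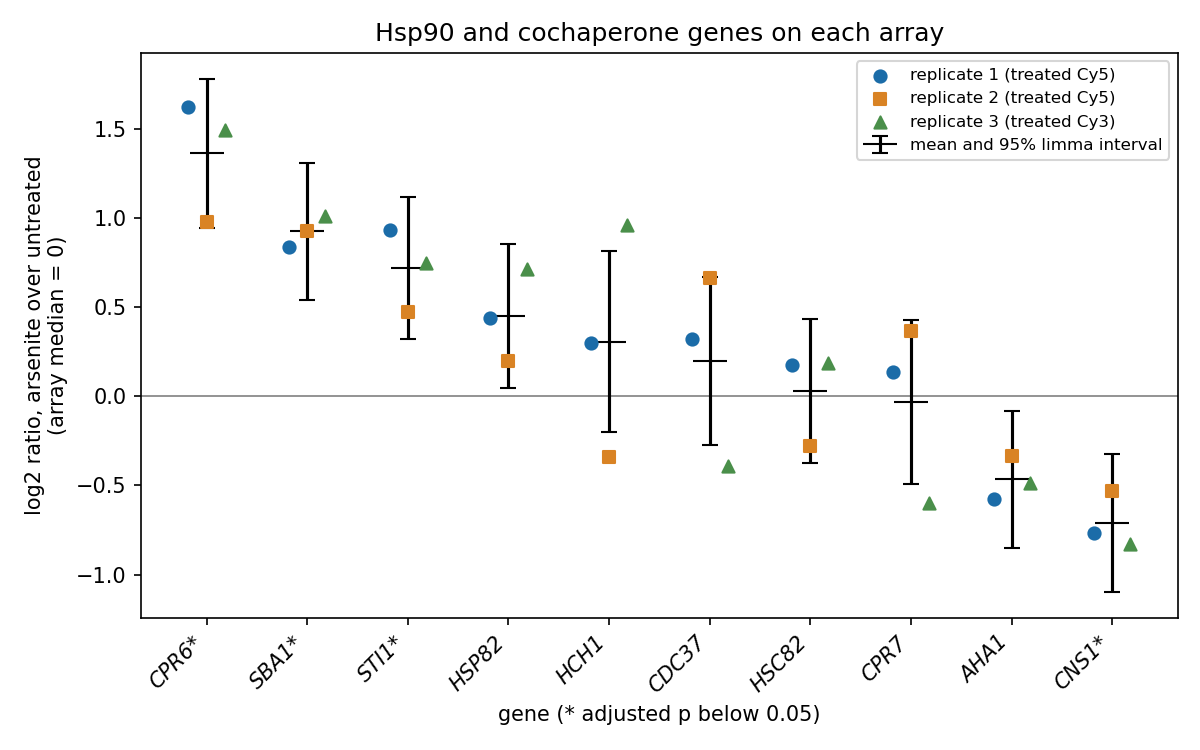
The vertical axis is the log2 ratio of arsenite-treated over untreated cells with the array median at 0, and the genes are ordered by their mean. Points are the 3 arrays, with the dye of the treated RNA in the key, and bars are the mean with its 95% limma interval before adjustment for multiple testing. All 3 points of CPR6, SBA1 and STI1 lie above 0 and all 3 of CNS1 and AHA1 below it, whereas HCH1, CDC37, HSC82 and CPR7 have points on both sides.

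The Hsp90 genes differed from each other in the same direction on every array. HSP82 (YPL240C), the heat-inducible Hsp90 gene, had 0.44, 0.20 and 0.71 on replicates 1, 2 and 3, a mean 1.37-fold higher level after arsenite (0.45 ± 0.26, 95% interval 0.05 to 0.85 before adjustment, limma adjusted p = 0.0825). It was above 0 on every array and did not pass the test. HSC82 (YMR186W), the constitutive Hsp90 gene, had 0.18, -0.28 and 0.19 (0.03 ± 0.27, 95% interval -0.38 to 0.43, limma adjusted p = 0.925). Its values lay on both sides of 0, and the interval holds changes of up to 1.35-fold upwards.

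Within an array, HSP82 exceeded HSC82 by 0.27, 0.48 and 0.53 on replicates 1, 2 and 3. The mean difference was 0.42 ± 0.14, a ratio of 1.34, and the order was the same on 3 of 3 arrays. An exact two-sided sign-flip permutation test gave p = 0.25, the smallest that 3 arrays allow. HSP82 and HSC82 are close paralogs, so each spot may also take up the other transcript, and no probe design was given. HSP82 stood near the threshold, with an adjusted p of 0.0433 when arrays were centred within runs of spots and 0.0379 without replicate 2. With a dye effect fitted its mean was 0.52. That fit has only 1 array with treated RNA in Cy3, so its p is not given. In the other settings the adjusted p of HSP82 ran from 0.0379 to 0.380.

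**Figure D2:**
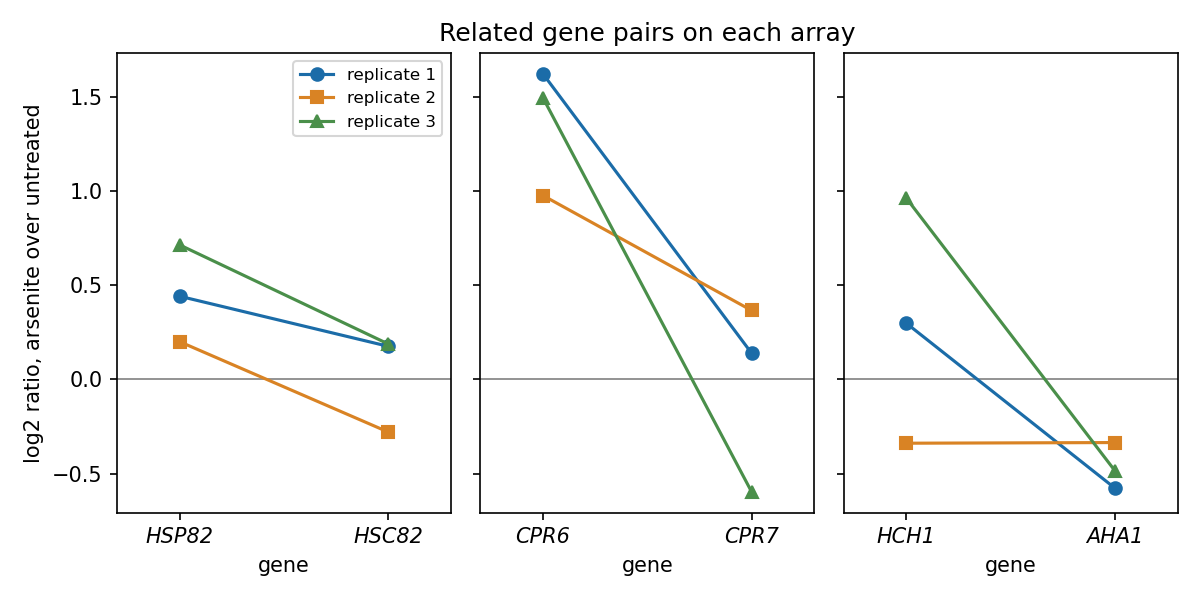
Each panel joins the log2 ratios (arsenite over untreated) of 2 related genes on the same array, with 1 line for each of the 3 arrays. HSP82 lies above HSC82 and CPR6 above CPR7 on every array, whereas HCH1 and AHA1 have nearly the same value on replicate 2.

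Among the cochaperones that deliver clients, STI1 rose, CNS1 fell and CDC37 did not pass. STI1 (YOR027W), known as Hop in animals, bridges Hsp70 and Hsp90 and hands clients from one to the other. Its ratios were 0.93, 0.47 and 0.75, a 1.65-fold rise (0.72 ± 0.23, limma adjusted p = 0.00964). All arrays lay well above 0, but without replicate 1 the mean was 0.61 and the call was lost (adjusted p = 0.196). In that setting the adjusted p followed the size of the mean alone, so the loss does not speak to the spread of STI1. With the dye fit left aside, the adjusted p of STI1 ran from 0.00588 to 0.196.

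CNS1 (YBR155W) encodes an essential protein with tetratricopeptide repeats that binds Hsp90 and is known to help fold translation elongation factor eEF2. Its ratios were -0.77, -0.53 and -0.83, a level 1.64-fold lower after arsenite (-0.71 ± 0.16, limma adjusted p = 0.00900). The arrays lay close together and below 0. The call was lost without replicate 1 (mean -0.68, adjusted p = 0.135) and with the values as deposited (mean -0.59, adjusted p = 0.136). With the dye fit left aside, the adjusted p of CNS1 ran from 0.00476 to 0.136. CDC37 (YDR168W), the essential cochaperone that loads protein kinases, had 0.32, 0.67 and -0.39 (0.20 ± 0.54, 95% interval -0.27 to 0.67, limma adjusted p = 0.519). It was higher on both arrays with the treated RNA in Cy5 and lower on the array with it in Cy3.

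The activators of the Hsp90 ATPase had means of opposite sign, and neither passed. AHA1 (YDR214W), which speeds up ATP hydrolysis by Hsp90, had -0.58, -0.34 and -0.49, a level 1.38-fold lower (-0.47 ± 0.12, 95% interval -0.85 to -0.08 before adjustment, limma adjusted p = 0.0627). AHA1 was below 0 on every array. The spots of AHA1 on replicate 3 differed by 0.65, the widest gap for any member, where the median gap was 0.14. With the second spot alone AHA1 was at -0.56 and passed (adjusted p = 0.0477), and with the first alone it was at -0.37 and did not (0.194). AHA1 also passed with arrays centred within runs of spots (adjusted p = 0.0494) and without replicate 2 (0.0473), in a range of 0.0473 to 0.442.

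HCH1 (YNL281W), a shorter relative of AHA1 that also acts on the ATPase, had 0.30, -0.34 and 0.96 (0.31 ± 0.65, 95% interval -0.20 to 0.81, limma adjusted p = 0.343). Its arrays spread more widely than those of any other member. Without replicate 2, the array below 0, the mean of HCH1 was 0.63 and passed (adjusted p = 0.0435), and without replicate 3 the mean was -0.02 (0.961). The difference HCH1 minus AHA1 was 0.88, -0.0035 and 1.45 on replicates 1, 2 and 3 (0.77 ± 0.73), so the pair was all but equal on replicate 2.

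SBA1 and CPR6 rose, and CPR7 did not pass. SBA1 (YKL117W), known as p23 in animals, binds the closed form of Hsp90 and slows its ATPase. Its ratios were 0.84, 0.93 and 1.01, a 1.90-fold rise (0.93 ± 0.09, limma adjusted p = 0.00152). The arrays lay within a narrow band whichever dye the treated RNA carried. Leaving the dye fit aside, SBA1 passed in every alternative setting, with means from 0.88 to 1.04.

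CPR6 (YLR216C) and CPR7 (YJR032W) encode related cyclophilins, peptidyl-prolyl isomerases with tetratricopeptide repeats by which they dock on Hsp90. CPR6 had 1.62, 0.98 and 1.49, a 2.57-fold rise (1.36 ± 0.34, limma adjusted p = 0.000177). CPR6 ranked 143 from the top among all genes, which would be 143 from the bottom with the ratio read the other way. It was the highest member on every array and, the dye fit left aside, passed in every alternative setting, with means from 1.23 to 1.56. CPR7 had 0.14, 0.37 and -0.60 (-0.03 ± 0.50, 95% interval -0.49 to 0.43, limma adjusted p = 0.928). Like CDC37, CPR7 was above 0 on the arrays with treated RNA in Cy5 and below it on the other. CPR6 minus CPR7 was 1.48, 0.61 and 2.09, a mean of 1.39 ± 0.74, and CPR6 was higher on 3 of 3 arrays. The CPR6 and CPR7 pair and the HCH1 and AHA1 pair were added after the values were seen and were not tested.

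**Figure D3:**
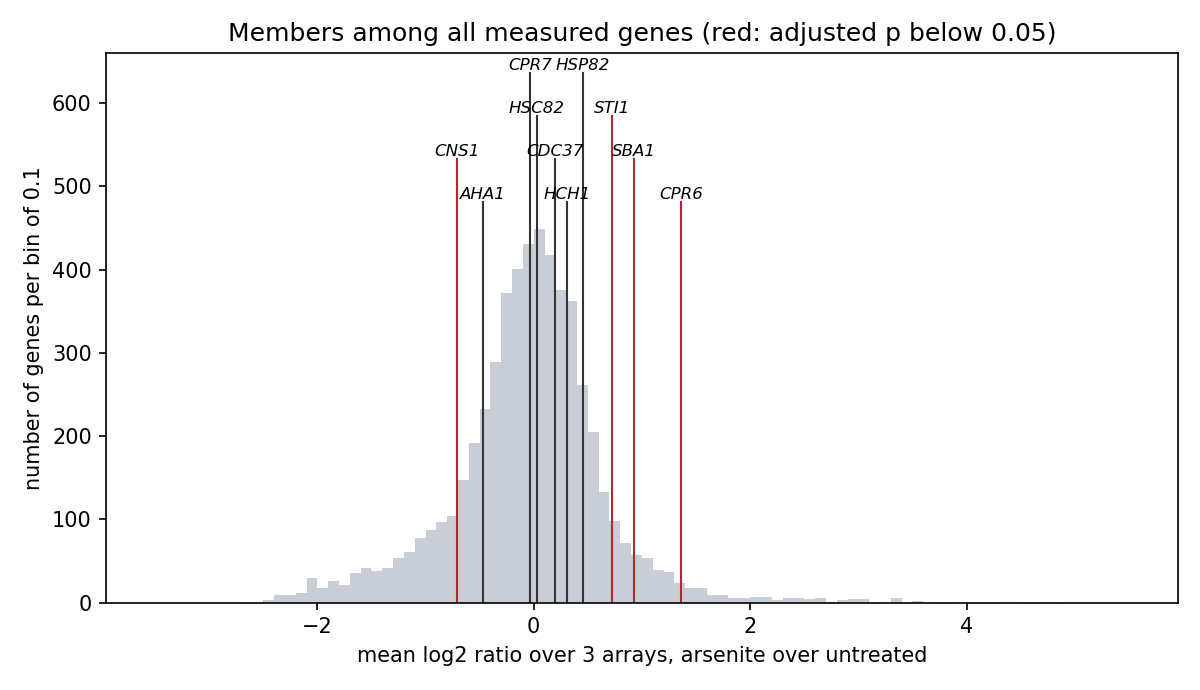
Grey bars count genes by their mean log2 ratio over the 3 arrays (arsenite over untreated) in bins of 0.1, and lines mark the 10 members, red where the adjusted p is below 0.05. CPR6 lies above 97.4% of genes and SBA1 above 94.2%, whereas HSC82 and CPR7 lie in the middle and CNS1 lies above 13.6%.

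The order of the members by mean was CPR6, SBA1, STI1, HSP82, HCH1, CDC37, HSC82, CPR7, AHA1 and CNS1. Of the 9 neighbouring pairs in that order, 3 kept it on every array. These were CPR6 over SBA1 (mean difference 0.44 ± 0.37), STI1 over HSP82 (0.27 ± 0.23) and AHA1 over CNS1 (0.24 ± 0.09). The other 6 pairs changed order on at least 1 array, as did SBA1 and STI1 (0.21 ± 0.28) and HSP82 and HCH1 (0.15 ± 0.39). Neighbours from HSP82 down to AHA1 in the order are therefore not told apart by these arrays. Of the 10 members, 4 were above 0 on all arrays and 2 below, where 27.6% and 30.9% of all genes were.

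Of the 4 members of mixed sign, CDC37 and CPR7 had replicate 3 on the other side of 0 from replicates 1 and 2. Replicate 3 is the 1 array with treated RNA in Cy3, so a dye effect and an effect of that array cannot be told apart, and both genes were chosen for this pattern. Before replicate 3 was turned, the Cy5 over Cy3 ratio of CDC37 was 0.32, 0.67 and 0.39, and that of CPR7 was 0.14, 0.37 and 0.60. Both were thus above 0 on all 3 arrays whichever RNA was in Cy5, as were 8.49% of all genes. A dye term fitted beside the treatment was 0.44 for CDC37 and 0.42 for CPR7. Because both genes were chosen for this pattern, the sign of their dye terms was fixed in advance. HCH1 had a dye term of the opposite sign, -0.49. Only 1 array had treated RNA in Cy3, so p-values of the dye term are not given. With the dye term in the fit the treatment effects of CDC37 and CPR7 were 0.05 and -0.17. For CPR6, SBA1, STI1 and CNS1 the dye terms were between -0.10 and 0.09, small beside their treatment effects. These genes were called for values that lay together on the same 3 arrays, so small dye terms are no further evidence for the calls. HSP82, which was not called, had a dye term of -0.20.

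**Figure D4:**
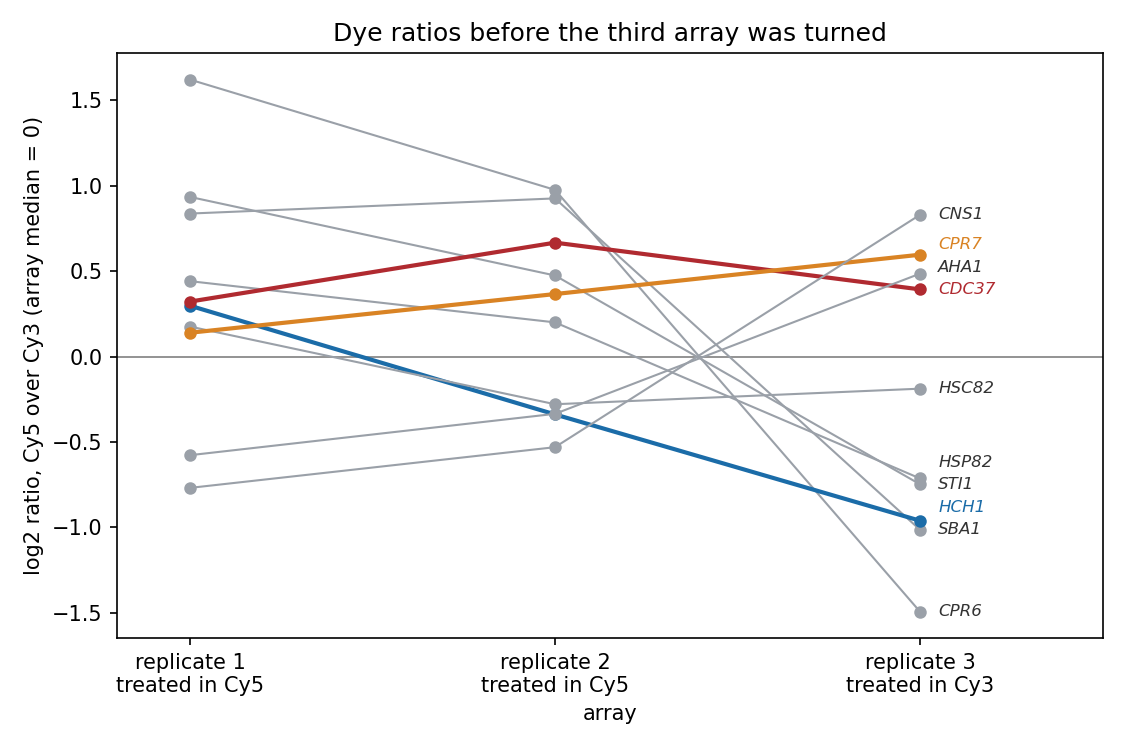
The vertical axis is the log2 ratio of Cy5 over Cy3 with the array median at 0, before replicate 3 was turned, and each line is 1 member over the 3 arrays. A treatment effect changes sign at replicate 3, where the dyes were exchanged, as for CPR6 and CNS1, whereas CDC37 and CPR7 stay above 0 on all 3 arrays.

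The list of other Hsp90 assemblies held the R2TP complex (TAH1, PIH1, RVB1 and RVB2), which builds other complexes with Hsp90, the Tel2 complex (TEL2, TTI1 and TTI2), SGT1, PPT1 and HGH1. Of 10 measured genes, 0 rose and 3 fell, where 13.3% and 18.8% of all genes did, and the list median was -0.05. The share called is near that of all genes. HGH1, for a chaperone that works on eEF2, had -1.11, -0.47 and -1.70, a level 2.13-fold lower (-1.09 ± 0.61, limma adjusted p = 0.00275). PPT1, the phosphatase that acts on Hsp90, was at -0.60 ± 0.19 (limma adjusted p = 0.0233) and TTI1 at -0.57 ± 0.45 (0.0497). The call of PPT1 was lost without replicate 1 (adjusted p = 0.278), without replicate 3 (0.0530), with the second spot alone (0.0852) and as deposited (0.252), and that of TTI1 in 5 of 10 settings, replicates 1 and 3 left out among them (0.350 and 0.165).

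Other genes that depend on Hsf1 in unstressed cells held the largest rises among the related lists. Of 11 measured genes, 5 rose and 1 fell, where 13.3% and 18.8% of all genes did, with a median of 0.44. HSP104, the disaggregase, had 2.48, 1.98 and 2.71 (2.39 ± 0.38, 5.24-fold, limma adjusted p = 4.24e-06). BTN2, which sorts misfolded proteins to deposits, was at 2.25 ± 0.26, whereas HSP42, a small heat shock protein, fell by 1.08 (SD 0.54, limma adjusted p = 0.00213). HSP82, HSC82, STI1, CPR6, AHA1 and HCH1 belong to the same group of Hsf1-dependent genes, and 2 of these 6 rose, where 13.3% of all genes did; nothing is read from so small a count. The transcript of Hsf1 itself had 0.61, 0.99 and -0.04 (0.52 ± 0.52, limma adjusted p = 0.0842). HSF1 passed with the first spot alone, with arrays centred within runs of spots and without replicate 3 (adjusted p = 0.0499, 0.0434 and 0.00306). The general stress factors MSN2 (-0.18 ± 0.22) and MSN4 (0.40 ± 0.31) did not pass, MSN4 except after centring within runs of spots and without replicate 3 (adjusted p = 0.0431 and 0.0430).

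Of the listed genes of the Hsp70 and Hsp40 system, 4 of 13 rose and 0 fell, with a median of 0.33. Of all genes, 13.3% rose and 18.8% fell, and the share called in the list is near that of all genes. SSA4, the strongly inducible Hsp70, had 1.62, 1.72 and 2.74 (2.03 ± 0.62, 4.08-fold, limma adjusted p = 3.56e-05). SSE1, which exchanges nucleotide on Hsp70, rose by 0.98 ± 0.50 (limma adjusted p = 0.00357), and SIS1, an essential Hsp40, by 0.54 ± 0.09 (0.0344). The call of SIS1 was lost without replicate 1 (adjusted p = 0.285), without replicate 3 (0.0839), with the second spot alone (0.0936) and as deposited (0.0935). The constitutive Hsp70 genes SSA1 and SSA2, named here beside HSC82 after their values were seen, were at 0.0036 ± 0.29 and 0.10 ± 0.22. SSA genes are close paralogs and may share hybridisation.

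**Figure D5:**
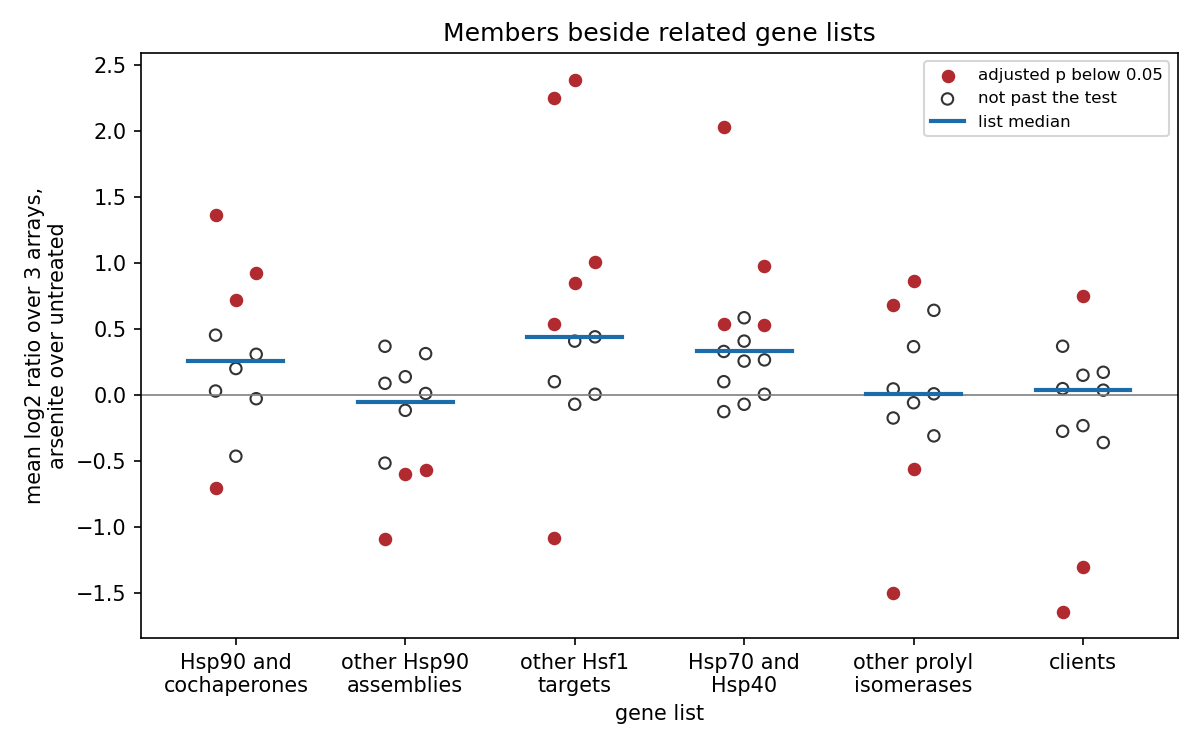
Each point is 1 gene's mean log2 ratio over the 3 arrays (arsenite over untreated), filled where the adjusted p is below 0.05, and blue lines are list medians. The Hsp90 list (median 0.25) lies between the other Hsf1 targets (0.44) and the other Hsp90 assemblies (-0.05); some genes stand in more than 1 list.

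Among prolyl isomerases other than CPR6 and CPR7, 2 of 11 measured genes rose and 2 fell, where 13.3% and 18.8% of all genes did. The share called is near that of all genes, and the list median was 0.0069. FPR4, a nuclear isomerase of the FK506-binding family, had -1.87, -1.51 and -1.13 (-1.51 ± 0.37, limma adjusted p = 9.33e-05). CPR2, a cyclophilin, was at 0.86 ± 0.22 (limma adjusted p = 0.00300) and RRD1, an activator of PP2A phosphatases, at 0.68 ± 0.33 (0.0170). Without replicate 1 neither CPR2 (adjusted p = 0.0941) nor RRD1 (0.0507) passed, nor did RRD1 without replicate 3 (0.0789).

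Of 11 genes whose products are known to need Hsp90 or CDC37, 1 rose and 2 fell, where 13.3% and 18.8% of all genes did. The share called is near that of all genes, and the list median was 0.03. EFT1 and EFT2, which encode the same eEF2 protein, the client of Cns1 and Hgh1, had -1.65 ± 0.92 (limma adjusted p = 0.000700) and -1.30 ± 0.37 (0.000281). On replicates 1, 2 and 3, EFT1 was at -1.70, -2.53 and -0.70, below 0 on every array. EFT1 and EFT2 are near-identical, so their spots cannot be read as independent. The MAP kinase kinase kinase gene STE11 rose by 0.75 ± 0.07 (limma adjusted p = 0.00576), a call lost without replicate 1 (0.111). CDC28, the main cyclin-dependent kinase and a client of CDC37, had 0.05 ± 0.09 and was named after its values were seen.

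The ratios give no transcript level, so cell type was not checked against its markers. Of 7 a-cell genes 0 rose and 4 fell, and of 4 alpha-cell genes 1 rose and 1 fell. Of all genes, 13.3% rose and 18.8% fell. The part of these cell type genes in the Hsp90 values was not tested. The spread is that between these 3 arrays, which may be technical, since the labels do not say whether they came from separate cultures, and a ratio of bulk RNA cannot tell fewer cells of a kind from less RNA per cell.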

How the data were processed

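The deposited table holds 1 log2 ratio per spot and array, made by the authors; log base 2 is read from the range of the values (-5.534 to 5.417), and for scanner, background correction and normalization the sources used here give nothing. Spots were named through the platform annotation, and all 10 members matched the RefSeq table of assembly R64, used for names only. Replicate 3 was multiplied by -1, each array was centred on its median over all spots (deposited medians -0.07, 0.54 and 0.12), and spots were averaged per gene. In R 4.3.3, limma 3.58.1 (lmFit, eBayes) tested each mean against 0, two-sided, adjusted by Benjamini and Hochberg over 5539 genes. In the reported setting the prior had 9.909 degrees of freedom beside 2 residual ones. The fit was tested on simulated data without dye or array effects, so that run does not bear on such effects in these arrays. Only 3 arrays limit the precision, and intensities were not used here. Summaries used pandas 2.3.3 and plots matplotlib 3.10.9, under Python 3.11.15.

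The members and the related lists were chosen with earlier results of these data known. All members and regulators are named, and from each related list up to 3 genes with the largest change past the test. Alternatives were no centring, scaling, a dye term, single spots, centring within runs of 272 spots, centring on genes and leaving out each array. MBF1, FPR1 and ESS1 were not analysed here, and CNA2 was read under its current symbol CMP2.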

Additional observations from a re-analysis of the deposited data

How the results depend on the processing

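CPR6 and SBA1 kept their call in every alternative setting, the dye fit left aside. Without replicate 1, without replicate 3, as deposited and with the dye term, adjusted p of named genes followed the size of the mean alone. Without replicate 3, for example, SBA1 at 0.88 and HSP42 at -0.88 had limma adjusted p of 0.000918 and 0.000881. Calls lost in those settings do not show a wide spread of the gene's own arrays. Likewise, a call kept there, as for CPR6 and SBA1, restates a large mean. The number of members that rose was 2 to 5 with 1 array left out and 3 or 4 otherwise. The number that fell was 0 to 2 with 1 array left out, 0 as deposited, and 2 with the second spot alone or with arrays centred within runs of spots. Uncentred values lie higher by a median of 0.12. Centring moves all genes of an array by 1 constant, so the distance of CNS1 from the median gene cannot change and is no further evidence. Over all genes, 394 to 798 rose and 610 to 1112 fell with 1 array left out, the lowest of both without replicate 1, and 603 fell as deposited. Among members, signs turned for HSC82, CPR7, CDC37 and HCH1 only, none of which passed the test in the reported setting. HSC82 was at -0.014 with the second spot alone, -0.030 centred within runs of spots, and -0.052 to 0.18 with 1 array left out. CPR7 was at 0.085 as deposited, 0.091 with the first spot alone, and -0.23 to 0.25 with 1 array left out. CDC37 ranged from -0.036 to 0.49 and HCH1 from -0.021 to 0.63 with 1 array left out. The difference of HSP82 and HSC82 stayed between 0.37 and 0.53. The cause of these changes was not tested. Centring on the median over genes, added after the data were seen, changed the call of no member. Treated and untreated RNA are already paired within each array's ratio, and all arrays form 1 group, so no further pairing was made.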
